A study of Mus musculus with 4 samples.

Results

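Intergenic Runx3-bound regions at 1 to 10 kb from a transcription start site (TSS) made up 1597 of the 15121 peaks found in splenic CD4+ dendritic cells (DC), or 10.6%. A peak was taken when its centre lay more than 1 kb and at most 10 kb from the nearest TSS of any annotated transcript (GENCODE M1, mm9) and outside every gene record. No score or other measured value entered the choice. Of these peaks, 1225 lay upstream of their nearest TSS and 372 lay downstream of it, past the 3′ end of the gene.

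The study mapped Runx3 by ChIP-seq in CD11chiMHCII+CD4+ conventional DC, sorted by FACS from spleens of about 15 mice per sample. The 4 samples are 2 biological replicates immunoprecipitated with an in-house polyclonal anti-Runx3 antibody and 2 inputs of whole cell extract. The labels give C57BL/6 mice for 3 samples and C57BL/7 for 1 of the inputs, and name no genetic change or treatment in any sample. Cells were fixed in 1% formaldehyde, chromatin was broken to about 300 bp and reads were 50 bp long. Both replicates and both inputs entered a single call, so each region has 1 score, and the error between replicates is unknown throughout. Intervals below cover counting error only and treat peaks as independent.

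Runx3 is a transcription factor of the Runt family, which binds a core hexamer written TGTGGT together with its partner Cbfb and acts as activator or repressor. It is known for its part in lymphocyte fate and in DC, where the splenic CD4+ subset presents antigen on MHC-II to CD4+ T cells. Intergenic sequence a few kilobases from a TSS can hold enhancers and silencers, and PU.1, IRF and AP-1 factors are known to bind such elements in myeloid cells.

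The sequences below are 100 bases of mm9 (NCBIM37), plus strand, 5′ to 3′, around the RUNX hexamer nearest to the peak centre. They are shown because these peaks had the highest scores on each side. Capitals mark the core hexamer TGTGGT and the variants TGCGGT and CGTGGT on either strand, so that ACCACA and ACCGCA are matches on the minus strand. The first 4 lie upstream of the gene that names them.
Slc36a3 chr11:54968666-54968765: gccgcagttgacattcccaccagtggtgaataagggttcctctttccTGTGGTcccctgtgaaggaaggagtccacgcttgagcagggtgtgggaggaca
Atp13a2 chr4:140539488-140539587: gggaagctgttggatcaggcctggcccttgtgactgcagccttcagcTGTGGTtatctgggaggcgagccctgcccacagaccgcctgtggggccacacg
Arhgap25 chr6:87491244-87491343: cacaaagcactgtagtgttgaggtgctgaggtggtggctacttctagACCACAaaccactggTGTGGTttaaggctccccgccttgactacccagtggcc
Ccdc114 chr7:53178376-53178475: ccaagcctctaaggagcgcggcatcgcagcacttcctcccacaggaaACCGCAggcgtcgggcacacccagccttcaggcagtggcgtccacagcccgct
The next 4 lie downstream of their gene.
4930553M12Rik chr4:88511083-88511182: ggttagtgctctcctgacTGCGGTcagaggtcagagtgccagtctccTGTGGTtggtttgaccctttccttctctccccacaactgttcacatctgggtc
Trac chr14:54847270-54847369: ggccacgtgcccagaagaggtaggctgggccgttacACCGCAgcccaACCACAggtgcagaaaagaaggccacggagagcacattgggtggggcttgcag
Neurl3 chr1:36321245-36321344: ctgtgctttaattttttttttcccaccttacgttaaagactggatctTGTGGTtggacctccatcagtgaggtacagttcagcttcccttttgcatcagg
Nhedc1 chr3:135065450-135065549: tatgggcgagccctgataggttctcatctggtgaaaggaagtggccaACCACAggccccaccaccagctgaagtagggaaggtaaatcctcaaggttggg
In 7 of these 8 peaks the core hexamer was present, and the peak upstream of Ccdc114 held only the variants. Beside Trac and 4930553M12Rik a variant and the core hexamer lay in the same 100 bases.

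The next 4 sequences come from peaks with the highest score in each of 4 immune gene lists, and were chosen to show a core hexamer, a pair of core hexamers and a variant. The peak at Clec4n had the same score as that at Ddx58 and held none of the 3 hexamers, so its sequence is not among them.
H2-D1 chr17:35396123-35396222: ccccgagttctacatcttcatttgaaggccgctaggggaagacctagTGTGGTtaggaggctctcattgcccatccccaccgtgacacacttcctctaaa
Ifnar2 chr16:91367012-91367111: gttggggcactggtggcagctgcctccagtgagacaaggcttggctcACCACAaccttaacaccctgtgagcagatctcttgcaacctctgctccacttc
Csf1 chr3:107564529-107564628: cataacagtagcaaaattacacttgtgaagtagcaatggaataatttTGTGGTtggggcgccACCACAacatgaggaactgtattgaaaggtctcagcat
Ddx58 chr4:40191288-40191387: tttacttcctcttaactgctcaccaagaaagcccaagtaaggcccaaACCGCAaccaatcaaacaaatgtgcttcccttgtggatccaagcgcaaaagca
The antigen presentation gene H2-D1 and the interferon receptor gene Ifnar2 each had 1 core hexamer in the peak. Csf1, which encodes a growth factor of myeloid cells, had 2 that faced each other near the centre. Ddx58, which encodes the RNA sensor RIG-I, had the variant TGCGGT and no core hexamer.

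The upstream side held 76.7% of the peaks (Wilson 95% interval 74.6% to 78.7%). Intergenic sequence at these distances is itself unequal, since 66.6% of its 254 Mb lies upstream of the nearest TSS. Counted against the sequence available, there were 7.23 peaks per Mb upstream (exact Poisson 95% interval 6.84 to 7.65) and 4.37 per Mb downstream (3.94 to 4.84). The ratio of the densities was 1.65 (exact 95% interval 1.47 to 1.86).

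The upstream excess was larger next to the TSS than farther away. At 1 to 2 kb the density was 9.71 peaks per Mb upstream and 3.33 downstream, a ratio of 2.91 (1.96 to 4.48). At 5 to 10 kb it was 6.20 and 4.37, a ratio of 1.42 (1.21 to 1.68). Over bins of 1 kb, upstream density ran from 9.71 at 1 to 2 kb to a lowest value of 4.93 at 7 to 8 kb. Downstream density was between 3.33 and 5.72 in the same bins, with intervals that all overlap one another. Median distance was 4343 bp for upstream and 5457 bp for downstream peaks.

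**Figure D1:**
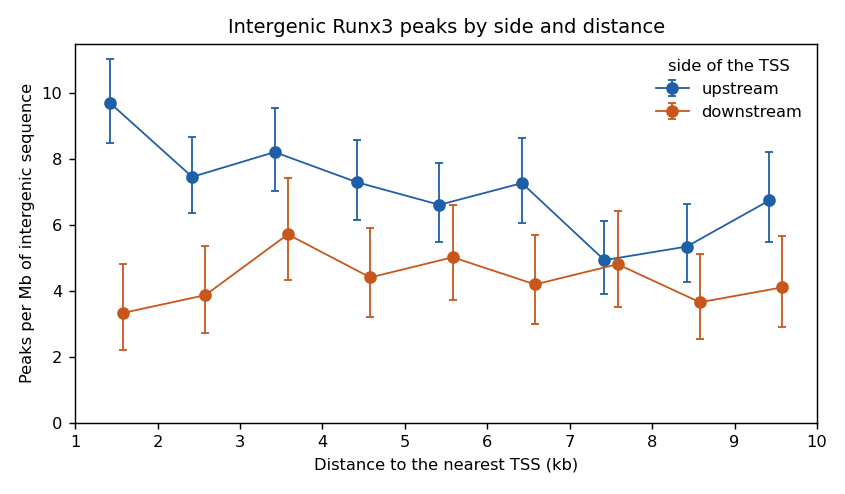
Peaks per Mb of sequenced intergenic DNA (y axis) against distance to the nearest TSS in kb (x axis, bins of 1 kb), upstream in blue and downstream in orange, with exact Poisson 95% intervals; points are set slightly apart for legibility. Upstream density is 9.71 per Mb in the first bin against 3.33 downstream, and the sides stand at 4.93 and 4.81 per Mb at 7 to 8 kb.

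Where the nearest TSS belonged to a protein-coding gene, the density was 8.98 peaks per Mb upstream and 5.62 downstream, a ratio of 1.60 (1.37 to 1.87). Next to other TSS it was 3.79 and 3.44, a ratio of 1.10 (0.896 to 1.35). The difference between these 2 ratios was not tested. A protein-coding gene was nearest to 1213 peaks, or 76.0%, which was 82.4% of the upstream and 54.8% of the downstream peaks. Small RNA genes were nearest to 148, annotated long noncoding transcripts to 116 and pseudogenes to 115.

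Downstream peaks lay a median of 2981.5 bp past the 3′ end of the gene (6 to 9861 bp), and 60 lay within 1 kb of it. Their genes had a median length of 1521.5 bp, against 17182 bp for the genes of upstream peaks, with all gene types included. For the 204 downstream peaks at protein-coding genes it was 4017 bp. A peak beyond a long gene is counted on the downstream side only where a transcript of that gene starts within 10 kb. Gene types also differed between the sides, as given above, and the share of each in the difference in length was not tested. Gaps between genes transcribed away from each other held 7.53 peaks per Mb (6.90 to 8.20), gaps between genes of the same direction 5.95 (5.55 to 6.36) and gaps between genes that converge 5.31 (4.64 to 6.05). These densities mix orientation with side. In converging gaps 39.9 Mb lay downstream, with 4.94 peaks per Mb, and 2.53 Mb upstream, with 11.1 per Mb from 28 peaks (7.36 to 16.0). Orientation apart from side was not tested.

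Most genes had a single peak of this kind. The 1597 peaks were nearest to 1369 genes, of which 1186 had 1, 146 had 2 and 37 had 3 or more. Of the 22367 protein-coding genes, 1043 had at least 1, or 4.66%. A peak within 1 kb of a TSS was also present at 424 of these 1043 genes, or 40.7% (37.7% to 43.7%), against 24.9% of all protein-coding genes. The share was 42.1% for genes with an upstream peak and 32.8% for genes with a downstream one. Another peak of any class lay within 5 kb of 40.6% of the intergenic peaks (38.2% to 43.0%), of 36.1% of intronic peaks at 1 to 10 kb and of 27.0% of intergenic peaks at 10 to 50 kb. The last share is partly set by definition. A peak more than 10 kb from every TSS cannot have a peak within 1 kb of a TSS as a neighbour within 5 kb.

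Scores were modest for the most part, with some of the highest values of the whole list. The intergenic peaks, 10.6% of the list, held 31 of its 162 scores of 100 or more and 114 of its 1067 scores of 50 or more. MACS2 assigned the score, whose unit the sources leave out, and it served only to rank peaks. The median was 11.4 (distribution-free 95% interval 11.1 to 12.4) for the intergenic peaks at 1 to 10 kb, 12.7 for intronic peaks at the same distance and 12.7 for intergenic peaks at 10 to 50 kb. The median of the whole list, 12.1, was reached by 47.7% of them, against 51.1% of the intronic and 52.3% of the farther intergenic peaks. In the logistic fit over all 15121 peaks with peak width as covariate, the odds ratio of reaching it was 0.808 against intronic peaks (n = 2318, 0.688 to 0.949, adjusted p = 0.0443, Wald test) and 0.783 against farther intergenic peaks (n = 1940, 0.663 to 0.925, adjusted p = 0.0213). Upstream and downstream peaks had medians of 11.4 and 11.5, and the odds ratio between the sides was 1.03 (n = 1225 and n = 372, 0.767 to 1.38, adjusted p = 0.939). On chromosome X the 21 peaks had a median score of 7.84, with a highest value of 17.3, against 11.7 on the other chromosomes.

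The strongest upstream peaks lay at genes of varied roles. The highest score of the whole list, 309.3, belonged to the region 3493 bp upstream of Slc36a3, a member of the proton-coupled amino acid transporter family. It is the first sequence printed above and spans 832 bp (chr11:54968288-54969119) in a gap of 6.76 kb between Slc36a3 and Slc36a2. A score of 243 was found 3218 bp upstream of Atp13a2, which encodes a lysosomal ATPase. Arhgap25 had a score of 206 at 8009 bp, with a further peak 932 bp away.

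The peak at Ccdc114, a gene of motile cilia, scored 192 and lay 1029 bp from its TSS and 1617 bp from the TSS of the divergent gene Emp3, so that the assignment to Ccdc114 rests on a short difference in distance. At Fos, which encodes a subunit of AP-1, the score was 186 at 5088 bp upstream (chr12:86809418-86810087), and the Fos promoter had a peak too. Scores of 156 and 142 were found upstream of Capsl and Gpr141. The noncoding gene Gm13718 also reached 142, with the TSS of Ctnnd1, which encodes p120 catenin, 5360 bp to the other side. Among these 8 regions, Fos and Gpr141 were the only genes with a peak within 1 kb of the TSS.

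Downstream, the highest score was 222, in a region of 1191 bp (chr4:88510321-88511511) between 4930553M12Rik and Ifna1, at the edge of annotated type I interferon genes. It lay 3367 bp from the TSS of 4930553M12Rik and 14925 bp from that of Ifna1. The peak beyond Trac, the constant segment of the T cell receptor alpha chain, scored 138 at 4459 bp past the 3′ end (chr14:54846919-54847543), in the gap before Dad1. The enhancer of the alpha chain locus is known to lie in that gap. Beside its core hexamer the Trac region held the variant TGCGGT, an ETS core and an AP-1 site.

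The peak nearest to Lag3, which encodes an inhibitory receptor for MHC-II, scored 90.7 (chr6:124850933-124851547). It lay in the gap between Lag3 and Cd4, the surface marker of the sorted subset, 8829 bp from the TSS of Lag3 and 13001 bp upstream of that of Cd4. A second peak in the same gap, 6065 bp upstream of Cd4, scored 9.16. Neurl3, which encodes a ubiquitin ligase, had a score of 137 at 242 bp past its 3′ end, with the edge of the peak inside the gene record. The remaining downstream regions among the highest 8 lay beyond Nhedc1 (120), a sodium-proton exchanger gene, Pfpl (112) in the gap before the perforin-2 gene Mpeg1, the pseudogene H2-M6-ps (106) and 0610009L18Rik (101). Of the 50 intergenic peaks with the highest scores, 39 were upstream and 47 held a RUNX hexamer. Over all 1597 peaks the shares were 76.7% upstream and 73.6% with a RUNX hexamer. The 50 had a median width of 670 bp, against 397 bp for all 1597, so more bases were searched in them.

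**Figure D2:**
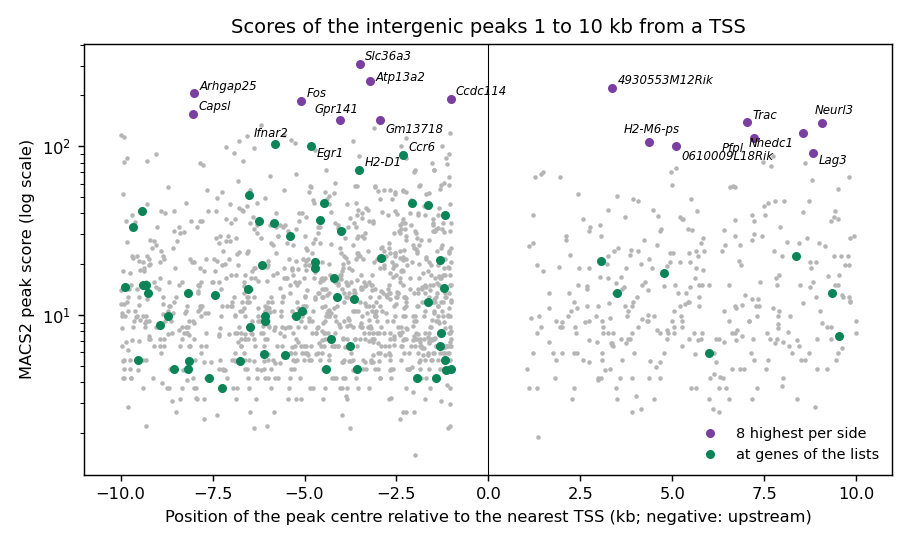
MACS2 peak score (y axis, log scale, unit not stated) of each of the 1597 peaks against the position of its centre relative to the nearest TSS in kb (x axis, negative values upstream). Purple points are the 8 highest on each side, green points the peaks at genes of the 8 lists, and grey points all others; the highest, upstream of Slc36a3, is at 309.3 and the highest downstream, at 4930553M12Rik, is at 222.

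Several genes gathered more than 1 region. Adamtsl4, which encodes a secreted matrix protein, had 5, of which 4 lay in the gap of 13.0 kb that its 3′ end shares with Mcl1, an anti-apoptotic gene, and their scores ran from 2.67 to 16.5. Gm8225 had 4, and 3 of them, with scores of 113, 56.9 and 41.1, stood next to each other (chr17:26669495-26672549) in the gap that it shares with Dusp1, a MAP kinase phosphatase gene. Each of those 3 peaks held the AP-1 motif TGANTCA. Dusp6, which encodes the phosphatase of ERK, had 3 upstream and 1 downstream (6.57 to 41.4). Tyk2, the kinase of type I interferon receptors, had 4 upstream peaks between 1461 and 7497 bp (10.98 to 31.9). Prss30 and Bex6 had 2 on each side, and the highest scored 104 and 48.3.

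The 6 lists of DC and immune genes had peaks of this kind at 48 of 210 genes, or 22.9%, beside 4.66% of all protein-coding genes. These counts are descriptions, since the lists were chosen with earlier results of these data known and no list was tested.

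Antigen presentation genes had peaks at 9 of 27, or 33.3%, with 13 peaks, of which 9 held TGTGGT. Genes of both MHC classes were among them. H2-D1, a classical MHC-I gene, had scores of 72.7 and 7.20 at 3509 and 4270 bp upstream. H2-Aa and H2-Ab1, which encode the chains of the MHC-II molecule I-A, had scores of 31.3 at 3998 bp and of 29.5 and 11.96 at 5383 and 1636 bp, and none of these 3 peaks held TGTGGT. Lgmn, the endopeptidase of antigen processing, had 3 peaks (35.2, 6.57 and 4.79), and Ctss, the protease that degrades the invariant chain, had 1 at 2907 bp (21.7). The peak 9402 bp upstream of Ciita, the master regulator of MHC-II genes, scored 15.0. Beyond their 3′ ends lay the peaks of H2-DMb1 (22.3), of the immunoproteasome subunit Psmb9 (13.4) and of H2-Oa (7.53). MHC genes have near-identical relatives, and how reads shared between copies would have affected their scores was not tested.

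Transcription factor genes had peaks at 8 of 47. The immediate early gene Egr1 had the highest score, 100, at 4821 bp upstream on chromosome 18, where a variant hexamer CGTGGT was present but no TGTGGT. Irf1, a factor of the interferon response, followed with 36.1 at 6228 bp, and the repressor gene Bcl6 had 18.95 at 4709 bp. Nr4a1, an orphan nuclear receptor, had 3 upstream peaks of 16.5, 14.6 and 13.4, and Klf2 had 1 on each side (13.4 downstream and 4.21 upstream). Sfpi1, the gene of PU.1, had a peak of 6.57 at 1327 bp, and Rbpj, the effector of Notch signals, one of 8.74 at 8930 bp.

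Receptor genes had 9 of 38, all upstream. Ifnar2, a chain of the type I interferon receptor, had a score of 103 at 5805 bp and Ifnar1, its partner, had 15.0 and 4.79. The chemokine receptor gene Ccr6 had 89.2 at 2315 bp, and Il21r had 41.1, 19.8 and 4.23. Of the ligands, 6 of 30 genes had peaks. They were Csf1 (39.1), the lymphotoxin gene Ltb (21.3), the chemokine genes Ccl5 (20.6 and 5.86), Ccl9 (20.9 and 5.96, both beyond the gene) and Ccl4 (12.4), and Il12b (4.79), a subunit of IL-12 and IL-23.

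Pattern recognition and uptake receptors had 9 of 38. Ddx58 and Clec4n, which encodes the lectin Dectin-2, both had 46.2, and Tlr3 had 36.6. Tlr13 had 4 upstream peaks of 13.1 or lower. Costimulation and surface genes had 7 of 30, led by the maturation marker Cd83 with 51.1 and 33.2 and the costimulatory ligand Cd80 with 44.6, and all 9 peaks at these genes held TGTGGT. Among 22 markers of other spleen cells, which include T, B and NK cell genes, Klrb1c alone had a peak, with a score of 3.69, and 1 of 18 lens crystallin and keratin genes had one, Cryab (17.8). These shares of 4.55% and 5.56%, beside 4.66% of all protein-coding genes, rest on 1 gene each. Lineage genes outside the list of markers were not counted, among them Trac, whose peak scored 138. With both genes beside a gap counted, 4 of the 22 markers had a peak, or 18.2%, beside 8.75% of all protein-coding symbols.

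The core RUNX hexamer was found in 996 of the 1597 peaks, or 62.4% (60.0% to 64.7%), on either strand and anywhere in the peak. Windows of equal width 10 kb away, at the higher coordinate whatever the strand of the gene, served as control and could be set for 1544 peaks. In these pairs 61.9% of peaks and 31.5% of windows held TGTGGT, with 644 pairs in favour of the peak and 175 in favour of the window (two-sided exact McNemar test, adjusted p = 5.81e-63). With the variants TGCGGT and CGTGGT included, 73.6% of all the peaks held a hexamer, and 73.5% of peaks and 39.1% of windows in the pairs. The remaining 421 peaks had none, with a median score of 9.84 and a median width of 363 bp, against 12.6 and 412 bp for the others. In 4 bands of rising score, with upper limits of 7.06, 11.36, 22.33 and 309.3, TGTGGT was found in 53.2%, 64.4%, 62.0% and 70.4% of peaks, and median width was 299.5 bp in the lowest and 552 bp in the highest band.

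The hexamer sat near the centre of the peak. The one nearest to the centre was at a median of 43.5 bp, and within 50 bp in 55.5% of the peaks that had one. Beyond 150 bp the share of peaks with a hexamer in a 50 bp bin was 3.23% to 6.18%, against 2.77% to 6.37% of windows. The nearest hexamer lay on the strand of the gene in 52.6% (49.5% to 55.7%), an interval that includes equal use of both strands. A pair or more of hexamers was present in 374 peaks.

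**Figure D3:**
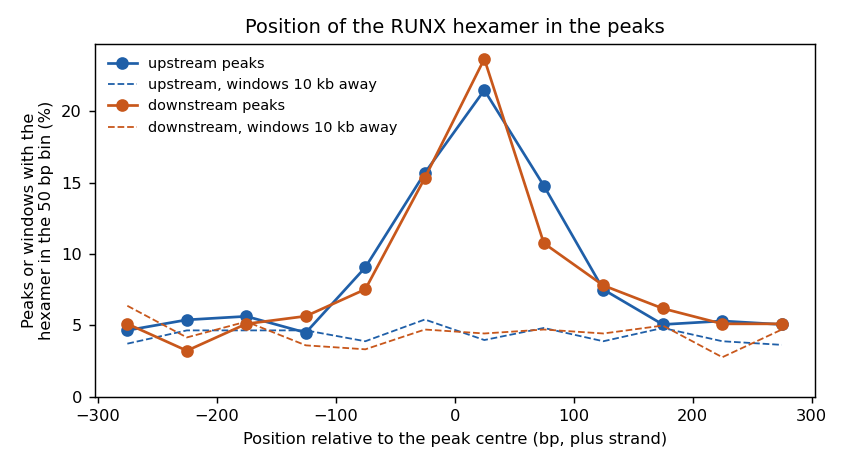
Share of peaks with the core RUNX hexamer in each 50 bp bin (y axis, %) against the position relative to the peak centre in bp on the plus strand (x axis); solid lines are peaks upstream (blue) and downstream (orange) of the TSS, dashed lines the windows 10 kb away. The share reaches 21.5% upstream and 23.7% downstream in the bin from 0 to 50 bp, where 3.97% and 4.43% of windows have it.

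The sides did not differ detectably in the hexamer, which 62.0% of upstream and 63.4% of downstream peaks held (n = 1225 and n = 372, odds ratio 0.952, 0.746 to 1.22, adjusted p = 0.937). Intronic peaks at 1 to 10 kb held it more often, at 68.4%, and the odds ratio of the intergenic peaks against them was 0.759 (n = 1597 and n = 2318, 0.662 to 0.869, adjusted p = 0.000486). Against intergenic peaks at 10 to 50 kb, with 65.5%, it was 0.876 (n = 1940, 0.762 to 1.01, adjusted p = 0.226). The share of CpG-rich sequence differed between intergenic and intronic peaks as well, and its part in the hexamer result was not tested. Peaks with a GC content of at least 50% and an observed to expected CpG ratio of at least 0.6 made up 8.52% of the intergenic and 3.24% of the intronic peaks, and 31.6% of the 136 CpG-rich intergenic peaks held TGTGGT. Without CpG-rich peaks the shares were 65.2% and 69.7%, and the odds ratio was 0.811 (n = 1461 and n = 2243, unadjusted p = 0.00408).

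**Figure D4:**
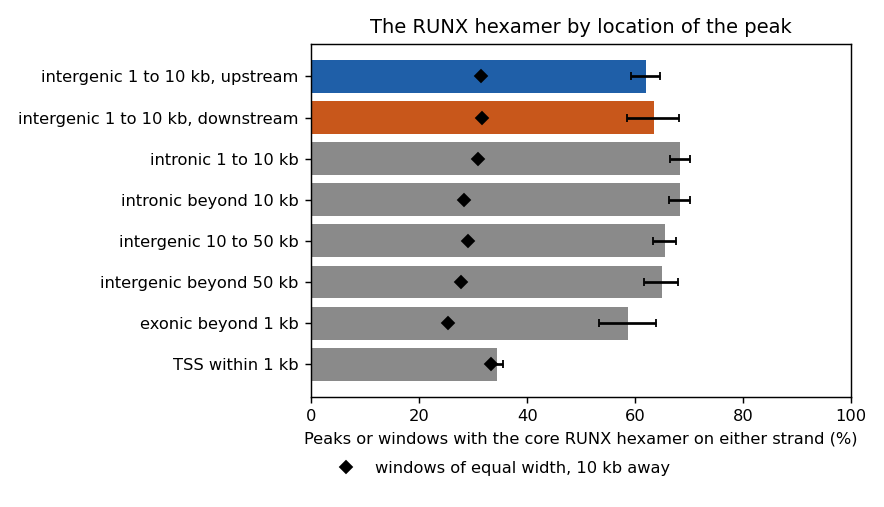
Share of peaks with the core RUNX hexamer (x axis, %) by location of the peak (y axis); bars are peaks with Wilson 95% intervals, diamonds the windows of equal width 10 kb away. The intergenic peaks at 1 to 10 kb, in blue and orange, stand at 62.0% and 63.4%, and peaks within 1 kb of a TSS at 34.4%, next to their windows at 33.3%.

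Motifs of factors known to share enhancers with Runx proteins were frequent as well. Of 13 motifs searched on both strands, 11 were more frequent in peaks than in windows at an adjusted p under 0.05, or 84.6%, in exact McNemar tests over the same 1544 pairs. The ETS core GGAAGT was found in 57.4% of peaks and 24.0% of windows (n = 1544, adjusted p = 4.34e-78), and the longer PU.1 site GAGGAAGT, which contains it, in 18.5% and 2.53% (adjusted p = 3.13e-48). PU.1 is a factor of myeloid cells and DC. Both TGTGGT and GGAAGT were present in 35.4% of peaks and 6.48% of windows, and neither in 16.1% and 51.0%.

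The variant TGCGGT was found in 16.1% of peaks and 3.56% of windows (n = 1544, adjusted p = 3.80e-33). GGATGTGGT, a joined ETS and RUNX site that contains the core hexamer, was found in 2.33% and 0.324% (n = 1544, adjusted p = 1.46e-06). The longer composite motif of ETS and IRF factors was present in 4.99% and 0.972% (n = 1544, adjusted p = 7.07e-11), while the IRF motif, a pair of GAAA repeats with 2 free bases between them, was in 7.19% and 6.02% (adjusted p = 0.230). TGACGT, a hexamer ascribed to the DC factor zDC (Zbtb46), had 7.51% and 3.82% (n = 1544, adjusted p = 1.54e-05), and the AP-1 site TGANTCA had 14.9% and 11.2% (adjusted p = 0.00298). The C/EBP site TTGCGCAA was in none of the 1597 peaks, which allows a share of up to 0.240% by the Wilson interval, and in 1 window.

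**Figure D5:**
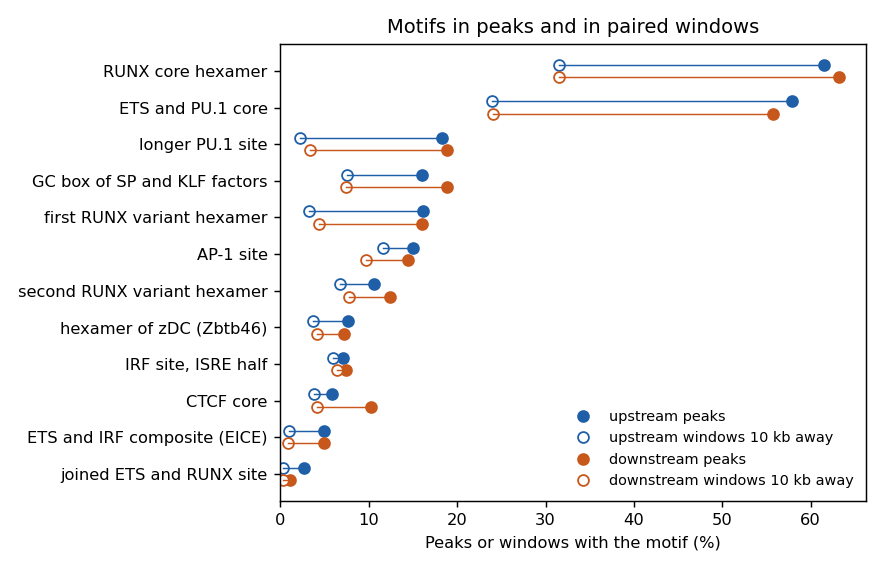
Share of peaks (filled circles) and of paired windows 10 kb away (open circles) with each of 12 motifs (x axis, %; y axis, the factor family), for upstream (blue) and downstream (orange) peaks. The longer PU.1 site is in 2.28% of windows and 18.3% of peaks upstream, and the CTCF core stands at 5.83% of upstream and 10.2% of downstream peaks.

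The features were compared with 2 other location classes. Against intronic peaks at 1 to 10 kb, 3 of 14 fitted features were more frequent, or 21.4%, and 2 were less frequent, or 14.3%, the latter being TGTGGT and a score at or above the median. GGGCGG, the GC box of SP and KLF factors, was in 16.9% of the 1597 intergenic and 11.99% of the intronic peaks (n = 2318, odds ratio 1.499, 1.25 to 1.802, adjusted p = 0.000227). The core motif of CTCF, a factor of domain boundaries, was in 6.95% and 3.93% (n = 1597 and n = 2318, odds ratio 1.83, 1.37 to 2.43, adjusted p = 0.000290), and CpG-rich sequence had an odds ratio of 2.78 (2.08 to 3.72, adjusted p = 1.90e-10). Against intergenic peaks at 10 to 50 kb, 2 of the 14 were more frequent, or 14.3%, and 1 was less frequent, or 7.14%. The first 2 were GGGCGG with an odds ratio of 1.502 (n = 1597 and n = 1940, 1.24 to 1.82, adjusted p = 0.000290) and CpG-rich sequence with 2.01 (1.52 to 2.66, adjusted p = 1.86e-05). For the CTCF core the shares were 6.95% and 6.03% (n = 1597 and n = 1940, odds ratio 1.17, 0.891 to 1.52, adjusted p = 0.765).

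Between the sides, 1 feature of 14 was less frequent upstream, or 7.14%. The CTCF core was in 72 upstream peaks, or 5.88%, and in 39 downstream peaks, or 10.5% (n = 1225 and n = 372, odds ratio 0.536, 0.356 to 0.806, adjusted p = 0.0165). Of these, 43 upstream (59.7%) and 29 downstream peaks (74.4%) also held TGTGGT. Among peaks without the CTCF core the share was 62.2% on each side, and the difference was not tested. None of the 14 was more frequent upstream (0% at an adjusted p under 0.05 in the logistic fit, and 0 at an unadjusted p under 0.05). The joined site GGATGTGGT came closest, with 2.94% of upstream and 1.08% of downstream peaks. Its odds ratio was 2.83, with an interval of 0.9999 to 8.01 that barely includes equal odds. The site was rare on both sides, so a difference is left undecided. PU.1 sites were in 18.4% of upstream and 18.3% of downstream peaks, and the interval of the odds ratio ran from 0.752 to 1.37. Among upstream peaks, 16.5% of those at 1 to 2 kb had CpG-rich sequence, and 54.8% of all upstream peaks at this distance held TGTGGT. The downstream shares in this bin were 14.3% and 60.7%. At 2 to 3 kb they were 16.7% and 52.8% downstream, against 5.42% and 64.5% upstream. Over all distances 8.16% of upstream and 9.68% of downstream peaks were CpG-rich. That odds ratio was 0.837, with an interval of 0.560 to 1.25 that includes equal odds.

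The limits of 1 and 10 kb cut through a continuous range of distances. Just inside the near limit were peaks upstream of Glt28d2 at 1003 bp (6.57), Nfkbie at 1012 bp (11.96) and Rbpms at 1014 bp (20.6), and just outside it peaks at F630110N24Rik and Tfip11 at 998 bp (9.84 and 28.4) and at Hist3h2bb-ps at 996 bp (25.8). At the far limit, Ceacam16 at 10000 bp (11.7), Cbwd1 at 9994 bp (116) and Crlf2 at 9989 bp (9.20) were inside, while Mir92-1 at 10005 bp (12.7), Aqp11 at 10011 bp (34.2) and U6 at 10025 bp (15.0) were outside.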

How the data were processed

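Runx3 ChIP-seq was measured in 2 immunoprecipitates and 2 inputs of splenic CD4+ DC. The authors aligned 50 bp reads uniquely to mm9 with bowtie and detected bound regions with MACS2 on the pooled samples. The submitters' processing notes also name CASAVA 1.8; other versions, the threshold and the handling of duplicate reads are not given in the sources used here. The deposited list gives the start, end and MACS2 score of each peak, and no source names the unit of this score. The depth per sample was not analysed here, so a missing peak means only that none was called. Columns with values per sample were not part of the list.

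Peaks were placed by their centre with GENCODE M1 on NCBIM37, the assembly of mm9, counted from 1. Upstream and downstream refer to the nearest TSS in the direction of transcription, with ties given to protein-coding genes. Densities used intergenic bases counted by the same rule, without unsequenced bases. Motifs were matched on either strand over the full length of a peak. Control windows were as wide as the peak, lay 10 kb away at the higher coordinate whatever the strand of the gene, and overlapped no peak. They were not limited to intergenic sequence, and 53 peaks had no such window. Exact McNemar tests were adjusted by the Benjamini-Hochberg method over 13 motifs. Logistic fits ran over all 15121 peaks with location class and log2 width, two-sided Wald tests and adjustment over 42 tests; TTGCGCAA could not be fitted. The threshold was 0.05 and intervals were at 95%. The methods were tested on simulated data.

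Named were the 8 peaks with the highest score on each side, the 6 genes with the most peaks, peaks at genes of 8 lists (at or above the list median, or with 2 or more at the gene; a few others are named beside them and were chosen after their values were seen) and peaks next to the limits. Of 250 list genes 250 matched, 1 by an older symbol. The peaks and lists were chosen with earlier results of these data known. Alternatives were other sets of TSS, distances, score limits, joined peaks, windows, assignment rules and fits without width, and, added after seeing the data, fits without CpG-rich peaks. Python 3.11.15, numpy 2.4.6, pandas 2.3.3, scipy 1.17.1 and matplotlib 3.10.9 were used.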

Additional observations from a re-analysis of the deposited data

How the results depend on the processing

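No paired analysis was possible because the deposited list pools the replicates and gives no value for any of them, and no replicate could be left out for the same reason. Of 86 values recomputed under the alternatives, 58 were judged the same, by a rule that differed between kinds of value. Shares and the ratio of densities had to stay within the interval of the main value. Counts had to stay within 1.5 times of the main value. Tested ratios had to keep only their direction and side of the threshold by unadjusted p, although the main results were called on adjusted p. Their size was not judged. For example, the ratio of peaks to windows with TGTGGT went from 1.96 to 2.92 with 200 bp around the centre. A score at or above the median against intronic peaks had an unadjusted p of 0.00949 in the main fit (Wald test). Without the width term it was 0.0351, which was judged the same with no adjustment made. The number of intergenic peaks at 1 to 10 kb was 761 with scores at or above the list median, 382 at or above the upper quartile and 876 at 1 to 5 kb. The upstream share was 81.8% with protein-coding genes only, 79.4% with 1 TSS per gene, 81.3% at 1 to 5 kb and 74.3% at 2 to 10 kb. The ratio of densities was 1.45 with protein-coding genes only and 1.88 at 1 to 5 kb, and stayed above 1 under all 7 alternatives run on it. TGTGGT was found in 66.5% and 70.2% of peaks with scores at or above the median and the upper quartile, and in 49.1% of the 200 bp around the centre. With protein-coding genes only, the odds ratio of TGTGGT against intergenic peaks at 10 to 50 kb was 0.804 (n = 1436 peaks of the kind, unadjusted p = 0.00265), past the threshold that it missed otherwise. The odds ratio of a score at or above the median between the sides, which passed no test, turned to 0.990 without the width term and 0.927 without CpG-rich peaks. Genes of the 6 immune lists with a peak numbered 75 when both genes beside the gap were counted, beside 8.75% of all protein-coding symbols. For single lists 12 counts moved by over 1.5 times. The causes were not tested. Peaks were treated as independent, and 40.6% had another within 5 kb.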

Other observations

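The RUNX hexamer was not centred on the listed peaks. Among the 996 intergenic peaks at 1 to 10 kb that held TGTGGT, the hexamer nearest to the centre lay a median of 14.5 bp to the right of it on the plus strand of the genome (distribution-free 95% interval 9.5 to 18.5 bp), and to the right in 585, or 58.7%. The shift was to the right for peaks next to genes of the plus strand (11.5 bp, 507 peaks) and of the minus strand (14.5 bp, 489 peaks), and it was 15.5 bp in 1585 intronic peaks at the same distance. Its cause was not tested.

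One peak, chosen after its values were seen, held 41 copies of TGTGGT in 303 bp. It lay 3177 bp upstream of Clptm1l (chr13:73738226-73738528) with a score of 10.5. The next highest numbers were 9 in a peak upstream of Capn5 and 8 upstream of Gng2. The reads behind it were not analysed here.

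Score and hexamer did not go together in every strong region. Of the 50 intergenic peaks with the highest scores, all at 79.9 or above, 40 held TGTGGT, and 7 more held only a variant. Of all 1597 peaks, which were narrower, 62.4% held TGTGGT. Among list genes, the peaks at Clec4n (46.2), Il21r (41.1 at 9420 bp), Lgmn (35.2 at 5831 bp), H2-Aa (31.3) and H2-Ab1 (29.5 at 5383 bp) held none of the 3 RUNX hexamers searched.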
